A study of Mus musculus with 8 samples.

Results

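The 9 genes described here carry glucose into the cell and through glycolysis to lactate: the glucose transporters Slc2a1 (GLUT1) and Slc2a4 (GLUT4), the hexokinases Hk1 and Hk2, the phosphofructokinases Pfkm and Pfkp, the pyruvate kinase Pkm, and the lactate dehydrogenases Ldha and Ldhb. They were taken by symbol, a choice made with earlier results of these data known, and all 9 were found among the 32285 genes of the count matrices. The data were raw counts of unique molecular identifiers (UMIs, 1 per captured RNA molecule) from single nuclei of the whole hearts of 8 male mice, 4 of them WT and 4 Taz-KO, with 1 library for each. All mice were 9 weeks old. The Taz-KO mice lack the acyltransferase Tafazzin, which remodels the mitochondrial phospholipid cardiolipin, and serve as a model of Barth Syndrome. The sources used here do not state which part of Taz was deleted, nor the strain background of either group. The comparison of WT with Taz-KO in each cell type asked whether RNA of the glucose pathway moved where that of fatty acid oxidation fell.

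A healthy adult heart makes most of its ATP from fatty acids and the rest from glucose, lactate and ketone bodies. Glucose enters through GLUT4, which insulin and contraction bring to the surface of muscle and fat cells, and through GLUT1, which is found in most cell types. Hexokinase traps glucose as glucose 6-phosphate, phosphofructokinase makes the first step particular to glycolysis, pyruvate kinase makes pyruvate, and lactate dehydrogenase exchanges pyruvate and lactate. Each of these steps other than pyruvate kinase is represented by a pair of related genes, of which Slc2a4, Hk2, Pfkm and Ldhb are known as the forms of adult muscle or heart, and Slc2a1, Hk1, Pfkp and Ldha as forms common to many tissues or to growing cells. A return towards the second set is a known feature of stressed hearts.

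Of the 169193 barcodes in the files, 151264 were kept as nuclei, and clusters of nuclei were named from marker genes. This gave 30016 cardiomyocyte nuclei (marked by Ryr2 and Ttn, between 213 and 7589 per mouse), 38095 fibroblast nuclei (Pdgfra and Bicc1), 21357 endothelial nuclei (Ptprb and Flt1) and 11848 macrophage nuclei (F13a1 and Mrc1). All nuclei of a cell type in a mouse were added up, and levels are given as CPM, scaled between mice by edgeR's TMM factors. CPM are UMIs of a gene relative to the sum over all genes other than those of the mitochondrial genome. The mouse was the replicate. Totals per library ran from 20025456 to 348080773 UMIs. Taz-KO replicates 4685 and 5301 stood apart from the other libraries, with 3492 and 5571 barcodes against 21190 or more, and 71.2% of the nuclei of Taz-KO replicate 4685 stayed in unnamed clusters. In the other libraries between 19071 (WT replicate 5356) and 32677 (Taz-KO replicate 4910) barcodes were kept as nuclei. The approximate number of nuclei per heart that the paper gives as input is smaller than any of these. Its total after filtering is also smaller than the total kept here. How many of the kept barcodes were not nuclei was not tested. RNA from outside the nucleus was plentiful and uneven: the median share of mitochondrial UMIs in cardiomyocyte nuclei lay between 5.11% and 17.4% in the WT mice and was 1.89%, 12.5%, 8.51% and 0.451% in Taz-KO replicates 4685, 4910, 5300 and 5301. Among 165854 different barcodes, 3295 (1.99%) occurred in more than 1 library. Taz itself was at 53.5 ± 4.08 CPM (SD, n = 4) in cardiomyocytes of WT mice and at 34.1 ± 7.21 CPM (SD, n = 4) in those of Taz-KO mice, with mice that did not overlap (log2 fold change -0.66 ± 0.18 SE, adjusted p = 0.0314 by edgeR's quasi-likelihood test). It was lower in Taz-KO fibroblasts, endothelial cells and macrophages too, by 0.56 to 1.15 on the log2 scale, without passing the test (adjusted p from 0.0873 to 0.312). Counts of a 3' assay with introns included can hold RNA from parts of a gene that were not deleted.

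In GRCm38, with the GENCODE vM21 annotation, Slc2a1 lies on chromosome 4 (119108711 to 119137983, plus strand), Slc2a4 on chromosome 11 (69942539 to 69948188, minus strand), Hk1 on chromosome 10 (62268855 to 62379908, minus strand) and Hk2 on chromosome 6 (82725025 to 82774454, minus strand). Pfkm lies on chromosome 15 (98092589 to 98132451, plus strand), Pfkp on chromosome 13 (6579768 to 6648777, minus strand) and Pkm on chromosome 9 (59656368 to 59679375, plus strand). Ldha lies on chromosome 7 (46841475 to 46855627, plus strand) and Ldhb on chromosome 6 (142490249 to 142507957, minus strand). Pfkm shares bases with another counted gene on its own strand, Gm26513, and how reads in the shared bases were divided is not given in the sources used here. Genes counted on the opposite strand overlap Slc2a1, Hk1, Hk2, Pfkm and Pfkp.

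The 250 bases before the annotated transcription starts are shown for the pair of genes that rose in cardiomyocytes and for Ldhb, the lactate dehydrogenase that fell, so that the sequence just upstream of each can be read beside its change. They are RefSeq windows on GRCm38.p6, written 5′ to 3′ on the strand of the gene. Capitals mark motifs searched on both strands. These were GGGCGG (the GC box), ACGTG (the core of hypoxia response elements) and CACGTG (an E-box, which contains ACGTG). Also searched were TNAAGGTCA (bound by estrogen-related receptors) and a loose MEF2-like pattern, CTA and TAG set 4 bases apart. Any base was allowed between CTA and TAG, where the MEF2 consensus has A or T only. Hk1 has a pair of listed starts, and the counts do not tell from which of them its RNA came.
Pfkp, chr13:6648772-6649021, minus strand: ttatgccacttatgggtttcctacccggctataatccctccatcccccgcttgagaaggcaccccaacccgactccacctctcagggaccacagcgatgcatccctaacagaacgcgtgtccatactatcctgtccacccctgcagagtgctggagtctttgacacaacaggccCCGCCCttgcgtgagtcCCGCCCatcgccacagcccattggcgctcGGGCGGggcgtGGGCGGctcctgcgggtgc
Hk1, chr10:62379909-62380158, minus strand: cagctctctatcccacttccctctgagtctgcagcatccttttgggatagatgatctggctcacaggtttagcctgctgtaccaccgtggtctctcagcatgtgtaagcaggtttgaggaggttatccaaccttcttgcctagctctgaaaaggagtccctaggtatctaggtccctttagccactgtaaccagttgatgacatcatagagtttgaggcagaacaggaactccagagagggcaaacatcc
Hk1, chr10:62340422-62340671, minus strand: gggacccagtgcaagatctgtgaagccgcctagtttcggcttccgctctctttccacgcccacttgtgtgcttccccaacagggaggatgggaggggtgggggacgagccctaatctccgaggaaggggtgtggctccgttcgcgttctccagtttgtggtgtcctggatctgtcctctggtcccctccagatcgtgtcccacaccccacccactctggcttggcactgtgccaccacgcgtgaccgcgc
Ldhb, chr6:142507958-142508207, minus strand: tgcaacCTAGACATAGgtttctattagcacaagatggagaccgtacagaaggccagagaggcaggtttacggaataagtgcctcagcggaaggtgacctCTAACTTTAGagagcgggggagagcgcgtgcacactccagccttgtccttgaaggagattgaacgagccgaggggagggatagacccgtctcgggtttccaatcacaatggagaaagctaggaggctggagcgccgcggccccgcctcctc

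The Pfkp window holds 4 matches to GGGCGG, the Ldhb window 2 to the loose MEF2-like pattern, and both Hk1 windows none of the motifs. Both Ldhb matches hold G or C between CTA and TAG, so neither is a MEF2 consensus site. Over the 14 windows listed for 8 of the genes, GGGCGG occurs in 5, in Slc2a1, Hk2, Pfkp, Pkm and Ldha, while 32.7% of all 32851 windows of this length hold it. ACGTG occurs in 6 of the 14, against 16.6% of all windows, with 5 matches over both strands in a single window of Ldha. That window holds 2 copies of CACGTG, each of which counts once per strand. CACGTG is found in 2 windows, of Pfkm and Ldha (6.02% of all windows). The loose MEF2-like pattern is in that of Ldhb alone (3.20%) and TNAAGGTCA in none (1.14%). A pair of the Pfkm windows overlap each other. The windows describe letters upstream of a start and no binding was measured. Slc2a4 was without an entry.

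In cardiomyocytes, 2 of the 9 genes rose in Taz-KO and 3 fell. Those that rose, Hk1 and Pfkp, belong to the forms common to many tissues, and their means were 1.99 and 1.95 times those of WT. Those that fell, Slc2a4, Pfkm and Ldhb, belong to the forms of muscle or heart, and their means dropped to between 0.542 and 0.683 of WT. Slc2a1, Hk2, Pkm and Ldha did not pass the test. Of these, Slc2a1 (log2 fold change 0.83) went with the division into common and muscle forms. Ldha, a common form, was lower (-0.77) and Hk2, a muscle form, was higher (0.27), both against that division. Over all 18476 genes tested in cardiomyocytes 14.3% were called (8.24% higher and 6.09% lower in Taz-KO), and the 5 of 9 stand against that background. All 9 passed the filter on low counts. Their median log2 fold change was -0.38, beside -0.01 over all genes tested.

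Of the transporters, Slc2a4 fell and Slc2a1 did not pass the test. Slc2a4, the insulin-responsive transporter, was at 61.3, 66.2, 52.9 and 39.7 CPM in WT replicates 4686, 4909, 5355 and 5356. In Taz-KO replicates 4685, 4910, 5300 and 5301 it was at 32.2, 31.0, 35.5 and 20.6 CPM. Every Taz-KO mouse was below every WT mouse, by a narrow gap, and the lowest value was that of a small library. The fold change was -0.88 ± 0.21 (log2, SE; adjusted p = 0.0174). It missed the threshold without WT replicate 4909 (adjusted p = 0.0645) or without Taz-KO replicate 4910 (adjusted p = 0.0526). On plain CPM, without TMM factors, the highest Taz-KO mouse (43.0 CPM) passed the lowest WT mouse (33.6 CPM).

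Slc2a1, the transporter of most cell types, was far less abundant in UMIs, with 94 to 891 UMIs per mouse. Its levels were 5.68, 6.52, 5.32 and 8.50 CPM in the WT mice and 17.1, 8.48, 8.94 and 12.7 CPM in the Taz-KO mice, in the order given for Slc2a4. The groups overlapped only at 8.48 and 8.50 CPM, and the highest values were those of the small libraries. On plain CPM the groups did not overlap (5.37 to 7.21 in WT, 8.56 to 18.7 in Taz-KO). The log2 fold change of 0.83 ± 0.26 (SE) did not pass edgeR's test (adjusted p = 0.0588), while DESeq2 called it (adjusted p = 0.0298), as did edgeR without WT replicate 5356 (0.0470), without Taz-KO replicate 4910 (0.0430) and with doublets kept (0.0423).

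**Figure D1:**
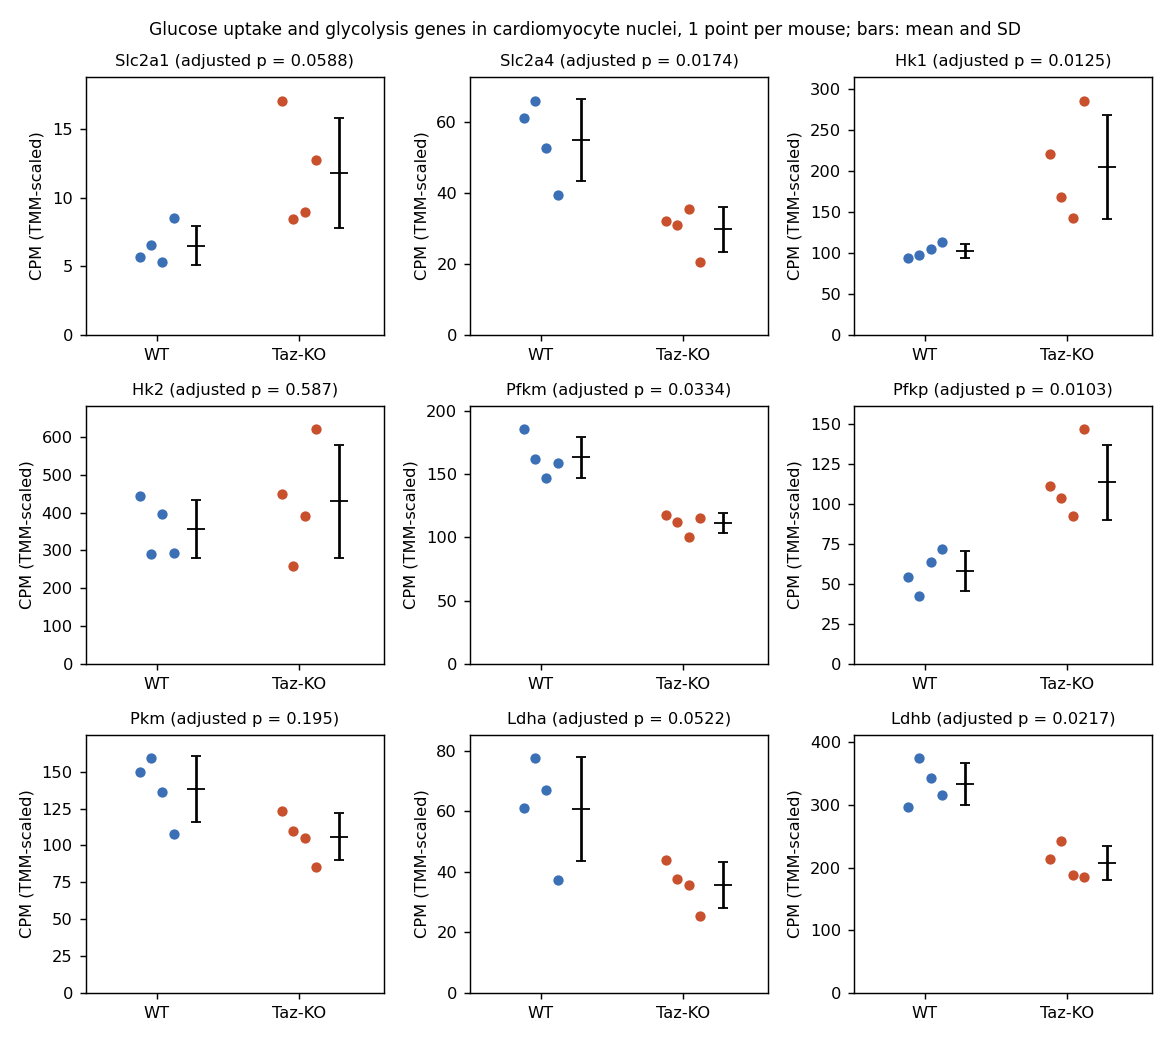
Level of each of the 9 genes in cardiomyocyte nuclei, in TMM-scaled CPM (linear axes from 0), with 1 point per mouse, 4 WT (blue) and 4 Taz-KO (red), and the mean and SD as bars; above each panel is the adjusted p of edgeR's test. The groups do not overlap for Slc2a4, Hk1, Pfkm, Pfkp and Ldhb, and the highest Taz-KO value of Hk1 (286 CPM) and of Pfkp (147 CPM) is that of Taz-KO replicate 5301.

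Of the hexokinases, the broadly expressed Hk1 changed and the insulin-regulated Hk2 was not called. Hk1 was at 94.3, 97.2, 104 and 114 CPM in WT replicates 4686, 4909, 5355 and 5356 and at 221, 168, 142 and 286 CPM in Taz-KO replicates 4685, 4910, 5300 and 5301. WT mice lay close together while Taz-KO mice were widely spread and all higher, and the small libraries, 4685 and 5301, were highest. The mean rose 1.99-fold (log2 fold change 0.99 ± 0.22 SE, adjusted p = 0.0125) and stayed past the threshold whichever single mouse was left out. Hk2 was at 445, 290, 398 and 294 CPM in WT and 450, 258, 392 and 620 CPM in Taz-KO. The mice overlapped widely and neither genotype was the higher one throughout (log2 fold change 0.27 ± 0.27 SE, adjusted p = 0.587).

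Pfkp, the platelet form of phosphofructokinase, had the lowest adjusted p of the 9 genes. The WT mice were at 54.1, 42.8, 64.0 and 71.6 CPM and the Taz-KO mice at 111, 103, 92.6 and 147 CPM. All Taz-KO mice were above all WT mice, and the lowest Taz-KO mouse was a large library. Its mean rose 1.95-fold (log2 fold change 0.96 ± 0.21 SE, adjusted p = 0.0103) and the call was kept in each of the 8 fits that leave out 1 mouse. Pfkm, the muscle form, was at 185, 162, 147 and 159 CPM in WT and 118, 113, 100 and 115 CPM in Taz-KO. The groups did not overlap, but the difference was smaller (log2 fold change -0.55 ± 0.15 SE, adjusted p = 0.0334). It missed the threshold without any one of WT replicates 4686 and 4909 and Taz-KO replicates 4685, 4910 and 5300 (adjusted p from 0.0573 to 0.0965), and with nuclei gated singly by their marker genes (0.0678).

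Pkm, whose splice forms were counted together, was at 150, 159, 136 and 108 CPM in WT and 124, 110, 105 and 85.4 CPM in Taz-KO. These mice overlapped (log2 fold change -0.38 ± 0.18 SE, adjusted p = 0.195). Ldhb, the lactate dehydrogenase subunit of heart, was at 297, 375, 344 and 316 CPM in WT and 215, 242, 188 and 185 CPM in Taz-KO. There was no overlap, and the mean fell to 0.623 of WT (log2 fold change -0.68 ± 0.17 SE, adjusted p = 0.0217). Without WT replicate 4909, the highest mouse, the adjusted p was 0.0811. Ldha, the subunit of skeletal muscle and of hypoxic cells, was at 61.1, 77.6, 67.2 and 37.2 CPM in WT and 43.9, 37.6, 35.8 and 25.5 CPM in Taz-KO. One WT mouse, replicate 5356, lay among the Taz-KO mice. It had the lowest median mitochondrial share of the WT mice (5.11%). The lowest Taz-KO mouse, replicate 5301, had a share of 0.451%. Whether Ldha levels followed this share was not tested. The log2 fold change was -0.77 ± 0.24 SE (adjusted p = 0.0522), and without WT replicate 5356 -0.96 (adjusted p = 0.0127). With all mice Ldha was called by DESeq2 (adjusted p = 0.0278), and by edgeR with RLE scaling (0.0484), with no filter on low counts (0.0357) and after ambient subtraction (0.0312).

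The mice did not overlap for 5 of the 9 genes, while this was so for 20.2% of all genes tested in cardiomyocytes. Leaving out both small libraries, a choice made after the data were seen, left 4 WT and 2 Taz-KO mice, and none of the 9 passed the threshold. Pfkp was then at 0.77 ± 0.21 (log2, SE; adjusted p = 0.0514), Hk1 at 0.62 ± 0.18 (adjusted p = 0.0610), Pfkm at -0.60 ± 0.20 (adjusted p = 0.0918), Slc2a4 at -0.72 ± 0.24 (adjusted p = 0.0956) and Ldhb at -0.62 ± 0.22 (adjusted p = 0.118). In that fit 1936 of all genes (9.92%) were called, and the direction was the same for 8 of the 9 genes, the exception being Hk2 (-0.13). In nuclei with under 5% mitochondrial UMIs, which left 3 WT and 4 Taz-KO mice with enough nuclei, Hk1 was at 1.01 ± 0.21 (adjusted p = 0.00772), Pfkp at 0.92 ± 0.18 (0.00615), Slc2a4 at -0.67 ± 0.20 (0.0416), Pfkm at -0.56 ± 0.16 (0.0389) and Ldhb at -0.62 ± 0.17 (0.0301). Slc2a1 passed the threshold there as well (0.98 ± 0.27, adjusted p = 0.0331). The share of all genes called in that fit is not given here. Of cardiomyocyte nuclei the limit kept 169 of 213 and 721 of 750 in the small libraries, 4685 and 5301. It kept 165 of 7589 and 574 of 5022 in Taz-KO replicates 4910 and 5300. In WT replicates 4686, 5355 and 5356 it kept 768 of 3713, 237 of 3959 and 1810 of 3705. Most of each small library was thus set beside a part of each large one.

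Cardiomyocytes fell into 8 clusters, and 6 of them had enough nuclei for a fit of their own. Cluster 9 held more of the cardiomyocyte nuclei in every Taz-KO mouse (22.7% to 35.6%) than in any WT mouse (7.48% to 10.6%), and cluster 17, led by atrial genes such as Myl7 and Nppa, held 19.2% and 15.9% in the small libraries against 4.52% to 7.75% in the other mice. The 9 genes and the pathway lists were left out when clusters were formed. Within clusters 5, 6, 9 and 20, Hk1 was called in each, at log2 fold changes of 0.84, 0.96, 1.12 and 1.08, and so was Pfkp, at 0.87, 0.79, 0.83 and 0.98, beside 9.49%, 8.28%, 17% and 7.7% of all genes. Ldhb was between -0.43 and -0.72 in these clusters and was called in 5 and 9, as was Slc2a4. In cluster 9 also Slc2a1 (1.14, adjusted p = 0.0197), Ldha (-1.09, adjusted p = 0.00886) and Pfkm (-0.58, adjusted p = 0.0174) were called. None of the 8 genes tested was called in cluster 17 (1.12% of all genes) or in cluster 30 (0.688%). There Hk1 was at 0.46 and -0.25 and Pfkp at 0.32 and 0.42.

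Because each pair of related genes was counted in the same nuclei, the share of a pair that 1 gene takes does not depend on the scaling between mice. Pfkp took 22.6%, 20.9%, 30.4% and 31.1% of the UMIs of Pfkp and Pfkm in the WT mice and 48.6%, 47.9%, 48.1% and 56.0% in the Taz-KO mice. The 2 groups were well apart, and the large Taz-KO libraries had the same share as the small replicate 4685. Slc2a1 took 8.48%, 8.97%, 9.14% and 17.6% of the UMIs of both transporters in WT and 34.7%, 21.5%, 20.1% and 38.2% in Taz-KO, again without overlap. Of the hexokinase UMIs, Hk1 took 22.8% ± 4.61 in WT mice against 32.7% ± 5.30 in Taz-KO mice (SD, n = 4 each), with overlap. In adipocytes the Hk1 share was lower in Taz-KO without overlap, at 17.3% ± 5.21 in WT (n = 4) and 5.43% ± 3.59 in Taz-KO (n = 3). The share of Ldha among the lactate dehydrogenase UMIs was 15.3% ± 3.18 in WT and 14.6% ± 2.24 in Taz-KO (SD, n = 4 each), a difference smaller than either SD. A share compares a pair between genotypes and says nothing of which gene has more RNA, as UMIs were not corrected for the length of a gene.

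**Figure D2:**
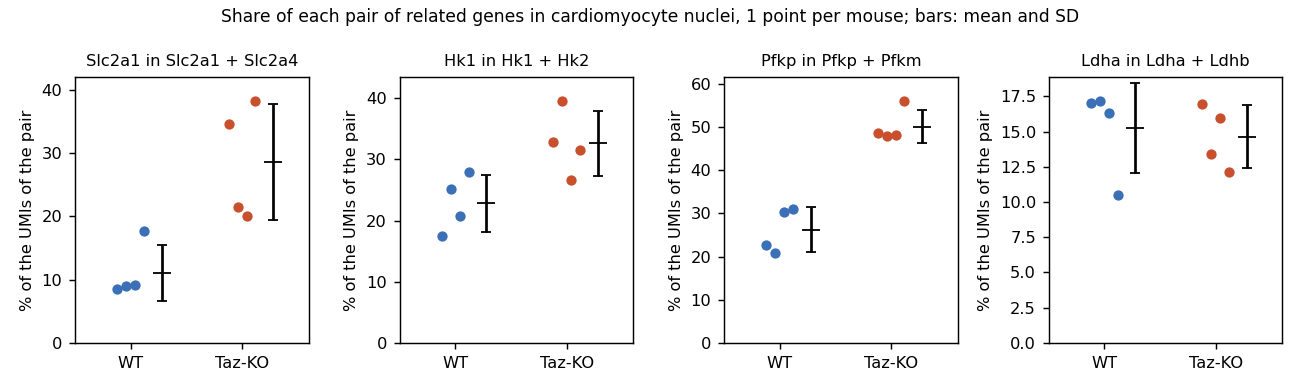
Share of the UMIs of each pair of related genes that came from the form common to many tissues, in cardiomyocyte nuclei (percent, linear axes from 0), with 1 point per mouse and the mean and SD as bars. For phosphofructokinase the WT mice lie between 20.9% and 31.1% and the Taz-KO mice between 47.9% and 56.0%, while for lactate dehydrogenase the groups overlap.

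None of the 9 genes was called in fibroblasts, endothelial cells or macrophages, where 0.318%, 0.423% and 0.251% of all tested genes were. At an unadjusted p under 0.05 there was 1 gene in fibroblasts and 1 in macrophages, Slc2a1 in both, and 0 in endothelial cells. DESeq2 called none of the 9 in these cell types either. The mice overlapped for every one of the 9 in all 3 cell types, where 6.14%, 5.31% and 4.19% of all genes did not overlap. Slc2a1 had a positive fold change in each, at 0.83 ± 0.30, 0.62 ± 0.29 and 1.04 ± 0.33 in that order (log2, SE; adjusted p = 0.357, 0.643 and 0.537), on 3 to 260 UMIs per mouse. Slc2a4 was at -0.83 ± 0.66, -0.69 ± 0.46 and -0.59 ± 0.62 and Ldhb at -0.63 ± 0.57, -0.49 ± 0.57 and -0.41 ± 0.63, with larger standard errors than in cardiomyocytes. Pfkp was near 0, at -0.15 ± 0.17, 0.09 ± 0.20 and 0.10 ± 0.22, and Hk1 was at 0.15 ± 0.19, 0.20 ± 0.15 and 0.33 ± 0.22.

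**Figure D3:**
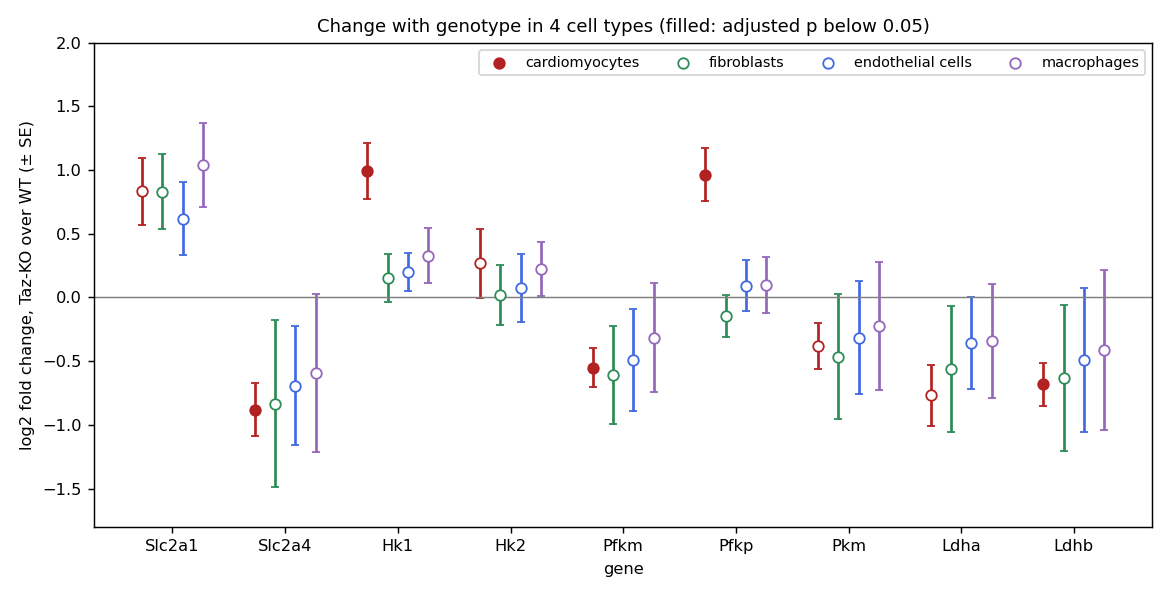
Log2 fold change of Taz-KO over WT for each gene in 4 cell types (vertical axis; bars are standard errors from edgeR, with 4 mice per genotype), with filled points for an adjusted p below 0.05. Filled points are found in cardiomyocytes only, and for Hk1 and Pfkp the cardiomyocyte point lies above those of the other cell types.

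Adipocytes were few, with 784 nuclei over the 8 mice. Taz-KO replicate 4685 had 4 of them and was left out of the fit, which held 4 WT and 3 Taz-KO mice. Of the 8 genes tested there, 1 was called, beside 4.49% of all 12247 genes. All 8 had positive fold changes, with a median of 0.75 on the log2 scale beside -0.01 over all genes. In edgeR's test 4 of them were at an unadjusted p under 0.05. Hk2 was at 371, 209, 259 and 268 CPM in WT replicates 4686, 4909, 5355 and 5356 and at 596, 1457 and 1253 CPM in Taz-KO replicates 4910, 5300 and 5301. All Taz-KO mice were above all WT mice, as they were for Ldha but for no other of the genes (18.3% of all genes did not overlap). The log2 fold change was 1.98 ± 0.32 (SE; adjusted p = 0.0151), on 78 to 1296 UMIs per mouse. The call was lost without WT replicate 4909 (adjusted p = 0.0634), WT replicate 5355 (0.0789) or Taz-KO replicate 5300 (0.0977). Ldha was higher as well but did not pass the test (0.91 ± 0.25, adjusted p = 0.0610). It was called with no filter on low counts (adjusted p = 0.0357), without WT replicate 5356 (0.0369) and without Taz-KO replicate 5301 (0.0345), which is the same fit as without both small libraries. Slc2a1 had too few UMIs to be tested. In pericytes, mesothelial cells, lymphatic endothelial cells and smooth muscle cells none of the 9 genes was called, beside 0.141%, 0.0736%, 0.0696% and 0.0112% of all genes, with 0, 1, 0 and 1 gene at an unadjusted p under 0.05 in edgeR's test.

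The difference of the genotype effect between cell types was tested in a joint fit with the mouse as a block. Pfkp had a larger effect in cardiomyocytes than in fibroblasts, by 1.12 ± 0.22 (log2, SE; adjusted p = 0.00232), than in endothelial cells, by 0.87 ± 0.23 (adjusted p = 0.0326), and than in macrophages, by 0.88 ± 0.24 (adjusted p = 0.0407). Of all genes 5.47%, 3.43% and 2.97% were called in these contrasts, and Pfkp was the single one of the 9 in each. Against fibroblasts the call was kept without any 1 mouse and without both small libraries (0.82, adjusted p = 0.00879). Against endothelial cells and macrophages the call was not kept. With 1 mouse left out it was lost for 6 and 5 of the 8 mice, with adjusted p up to 0.157 and 0.194. Without both small libraries it was lost too (adjusted p = 0.102 and 0.171). Against macrophages the call was also lost with no filter on low counts (adjusted p = 0.0518). For Hk1 the differences of 0.84 ± 0.26, 0.80 ± 0.27 and 0.65 ± 0.27 did not pass the test (adjusted p = 0.0682, 0.112 and 0.255). That against fibroblasts was called with DESeq2 (0.78, adjusted p = 0.0305) and without Taz-KO replicate 5300 (1.06, adjusted p = 0.0179). Without both small libraries the differences of Hk1 were 0.23, 0.44 and 0.07. For Slc2a4, Pfkm and Ldhb the differences lay between -0.15 and 0.12 with standard errors of 0.36 to 0.53, and none passed the test.

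Between cell types of WT mice, 5 of the 9 genes were higher in cardiomyocytes than in fibroblasts, where 30.6% of all genes were. Against endothelial cells 6 were higher and 1 lower (32.4% and 38.7% of all genes), and against macrophages 6 were higher (29.8%). Hk2 was the furthest apart, at 2.74 ± 0.20 (log2, SE) above both fibroblasts and endothelial cells and 1.87 ± 0.20 above macrophages. Pfkm was higher by 1.66 to 1.87, Ldhb by 1.00 to 1.28, Hk1 by 0.74 to 1.18 and Slc2a1 by 0.51 to 0.92, each past the threshold against all 3 cell types. Pfkp was higher in cardiomyocytes than in endothelial cells (0.56 ± 0.16, adjusted p = 0.00285) and macrophages (0.63 ± 0.16, adjusted p = 0.00146) but not fibroblasts (0.13 ± 0.15). Ldha was higher in endothelial cells than in cardiomyocytes, by 0.44 ± 0.16 (adjusted p = 0.0202). Slc2a4 and Pkm passed no test between any 2 cell types in this fit, and with the RLE scaling both were higher in cardiomyocytes than in fibroblasts (adjusted p = 0.0229 and 0.0207). Plain CPM put cardiomyocytes lower by 0.35 to 0.40 (log2, the median over the 9 genes) against each of the 3 other cell types, and all directions called above were the same there. Some differences were much smaller: above endothelial cells, Slc2a1 was at 0.12 and Pfkp at 0.17 on plain CPM. That of Ldha was larger (-0.84). No test was run on plain CPM.

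Among the other cell types Hk2 was higher in macrophages than in fibroblasts and endothelial cells, by 0.87 ± 0.20 against each (adjusted p = 0.000744 and 0.000949), beside 39.8% and 33.3% of all genes called. Pfkp was higher in fibroblasts than in endothelial cells (0.43 ± 0.16, adjusted p = 0.0342, beside 35.3% of all genes called) and macrophages (0.50 ± 0.16, adjusted p = 0.0148). For Slc2a1, Slc2a4, Hk1, Pfkm, Pkm, Ldha and Ldhb no difference among these 3 cell types passed the test in this fit. Those of Hk1 and Ldha were called with RLE scaling. Hk1 was lower in fibroblasts than in endothelial cells by 0.43 ± 0.18 (adjusted p = 0.0703, and 0.0297 with RLE scaling) and higher in endothelial cells than in macrophages by 0.43 ± 0.19 (adjusted p = 0.0914, and 0.0254 with RLE). Ldha was lower in fibroblasts than in endothelial cells by 0.42 ± 0.16 (adjusted p = 0.0516, and 0.0215 with RLE).

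How much of this RNA belonged to the nuclei of those cell types was not tested. As a measure of free RNA, the level in another cell type was divided by that in cardiomyocytes of the same mouse, for the 9 genes and for 8 cardiomyocyte markers. In fibroblasts the median ratio over 8 mice ran from 0.0636 for Myh7 to 1.39 for Tnni3 among the markers, in endothelial cells from 0.0834 to 1.86 and in macrophages from 0.0818 to 1.78. The ratios of the 9 genes lay from 0.194 (Hk2) to 1.50 (Ldha) in fibroblasts, from 0.182 to 2.04 in endothelial cells and from 0.341 to 1.67 in macrophages, for the same genes. Ldha was above all 8 markers in 6 of 8 mice in endothelial cells, 4 in fibroblasts and 3 in macrophages, whereas Slc2a4, Hk1, Hk2, Pfkm and Ldhb were above all of them in none of the mice. A level within the range that the markers span cannot be told apart from free cardiomyocyte RNA.

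**Figure D4:**
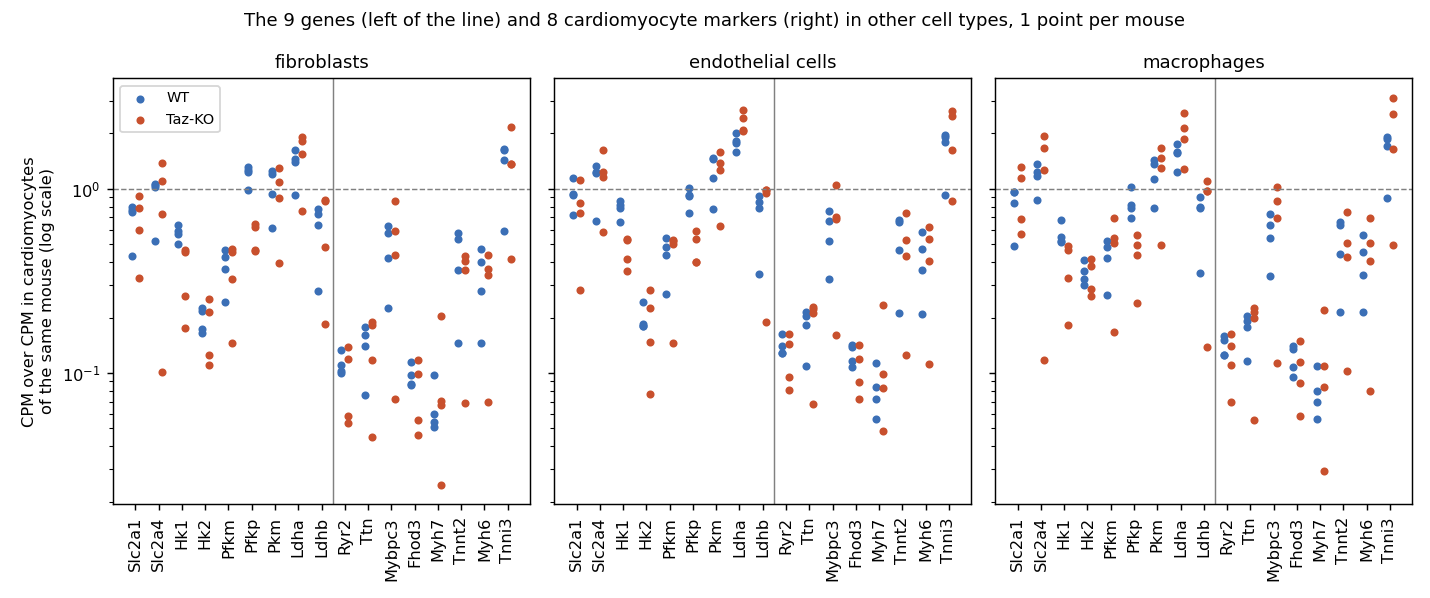
CPM in fibroblasts, endothelial cells and macrophages divided by those in cardiomyocytes of the same mouse (logarithmic axis), for the 9 genes and 8 cardiomyocyte markers, with 1 point per mouse (WT blue, Taz-KO red). Median ratios of the markers range from 0.0636 (Myh7 in fibroblasts) to 1.86 (Tnni3 in endothelial cells), the 9 genes lie mostly within that range, and Taz-KO replicate 5301 gives the lowest points for many genes.

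The wider glucose pathway was read from lists that, like the 9 genes, were drawn up with earlier results of these data known. Their counts stand beside the shares of all genes in cardiomyocytes, 8.24% called higher and 6.09% called lower. Of 21 other genes of glucose uptake and its control, 1 rose and 4 fell in Taz-KO cardiomyocytes. Slc5a1, a sodium-glucose cotransporter, rose from 2.79 ± 1.53 CPM to 28.2 ± 8.16 CPM (SD, n = 4 each; log2 fold change 3.34 ± 0.41 SE, adjusted p = 0.000624). It was the only listed gene called in other main cell types in this fit, at 3.78 ± 0.53 in fibroblasts (adjusted p = 0.0210) and 3.63 ± 0.44 in endothelial cells (adjusted p = 0.00996). Its Taz-KO levels in these 2 cell types, 5.64 ± 4.48 and 7.46 ± 3.19 CPM (SD, n = 4 each), were below that in cardiomyocytes. With each mouse left out in turn the adjusted p lay between 0.00241 and 0.0893 for fibroblasts and between 0.00495 and 0.0706 for endothelial cells, so both calls depended on single mice. In macrophages Slc5a1 did not pass the filter on low counts. With no such filter it was called there (4.55 ± 0.65, adjusted p = 0.00377), as it was with the gate per nucleus (adjusted p = 0.0113), without Taz-KO replicate 5301 (adjusted p = 0.00420) and without both small libraries (adjusted p = 0.0108), while without any 1 WT mouse it was tested and not called (adjusted p from 0.0878 to 0.131). After subtraction of an ambient share of 0.2 the call was lost in endothelial cells (adjusted p = 0.440), and in fibroblasts too few counts were left for a test, as in macrophages, whereas in cardiomyocytes the call held (adjusted p = 0.00377). How much of the Slc5a1 RNA outside cardiomyocytes was free RNA was not tested. Those that fell were Slc2a12, the transporter GLUT12 (-1.47 ± 0.23, adjusted p = 0.00213), Mlxipl, which encodes the glucose-sensing factor ChREBP (-1.25 ± 0.22, adjusted p = 0.00410), Txnip, a ChREBP target that restrains glucose uptake (-1.17 ± 0.25, adjusted p = 0.0109), and Mlxip, which encodes the related MondoA (-0.79 ± 0.20, adjusted p = 0.0253). The median of the list was -0.21, beside -0.01 over all genes. Beside the 14.3% of all genes, 5 of 21 called is not read as particular to the list.

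Of 23 other glycolysis enzymes, 20 were tested in cardiomyocytes, 2 rose and 2 fell, close to the shares of all genes, and the median was -0.04. The enolases moved apart: Eno1, the common form, rose from 36.6 ± 4.68 to 61.5 ± 19.7 CPM (log2 fold change 0.75 ± 0.21 SE, adjusted p = 0.0402), and Eno3, the muscle form, fell from 153 ± 31.9 to 53.7 ± 6.85 CPM (-1.51 ± 0.19, adjusted p = 0.000563). Pfkfb1, which sets the level of the phosphofructokinase activator fructose 2,6-bisphosphate, fell the most, from 75.7 ± 11.8 to 15.8 ± 6.50 CPM (-2.23 ± 0.28, adjusted p = 0.000491). Tigar, which opposes it, rose by 0.70 ± 0.17 (adjusted p = 0.0210). The mice of both genotypes did not overlap for any of these 4 genes, as for 20.2% of all genes.

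Among 5 genes of lactate transport and handling, Ldhd, a D-lactate dehydrogenase, fell (-0.95 ± 0.24, adjusted p = 0.0236) and the other 4 were not called. In the list of glycogen genes, 2 of 19 rose and 2 fell. Beside the 14.3% of all genes called, neither count is read as particular to its list. Gyg, which primes glycogen synthesis, rose by 1.25 ± 0.17 (adjusted p = 0.000739), and Stbd1, a glycogen-binding protein, rose by 2.93 ± 0.38 from 1.54 ± 0.732 CPM (adjusted p = 0.000623). Phkg1, the catalytic subunit of muscle phosphorylase kinase, fell from 140 ± 18.1 to 36.2 ± 11.2 CPM (-1.95 ± 0.22, adjusted p = 0.000273), and Epm2a, the glycogen phosphatase laforin, fell by 1.01 on the log2 scale (SE 0.24, adjusted p = 0.0168). Of 16 genes of the pentose phosphate, polyol and hexosamine branches, Gnpnat1 of the hexosamine route rose (0.82 ± 0.21, adjusted p = 0.0231) and Akr1b3, the aldose reductase, fell (-0.66 ± 0.15, adjusted p = 0.0125), again near the shares of all genes. Without both small libraries, a choice made after the data were seen, 0 of these 16 and 0 of the 5 lactate genes were called. The calls of Gnpnat1, Akr1b3 and Ldhd were thus lost. Of the 19 glycogen genes 2 rose and 2 fell in that fit, where 9.92% of all genes were called.

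Of 24 genes of fatty acid oxidation, 17 fell in cardiomyocytes and 0 rose, all 24 had negative fold changes, and the median was -0.94. This list was chosen with a known fall of such genes in these same libraries and is no independent evidence of its direction. The largest falls were those of Acaa2, a thiolase of the last step (-1.82 ± 0.30, adjusted p = 0.00278), Acsl1, which activates fatty acids (-1.33 ± 0.24, adjusted p = 0.00447), Cpt1a, a gatekeeper of mitochondrial import (-1.19 ± 0.30, adjusted p = 0.0226), Decr1 (-1.13 ± 0.23, adjusted p = 0.00844) and Acadm, the medium-chain acyl-CoA dehydrogenase (-1.12 ± 0.21, adjusted p = 0.00589). In fibroblasts, endothelial cells and macrophages 0 of the 24 were called, with 23 negative fold changes in each. Without both small libraries (Taz-KO replicates 4685 and 5301, left out after seeing the data) 5 of the 24 were called in cardiomyocytes, all lower, with a median of -0.83, where 6.26% of all genes were called higher and 3.66% lower. In that fit 1 of 21 rose and 2 fell in the uptake list, and 0 of 20 rose and 2 fell among the other glycolysis enzymes, which is not read as particular to either list.

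**Figure D5:**
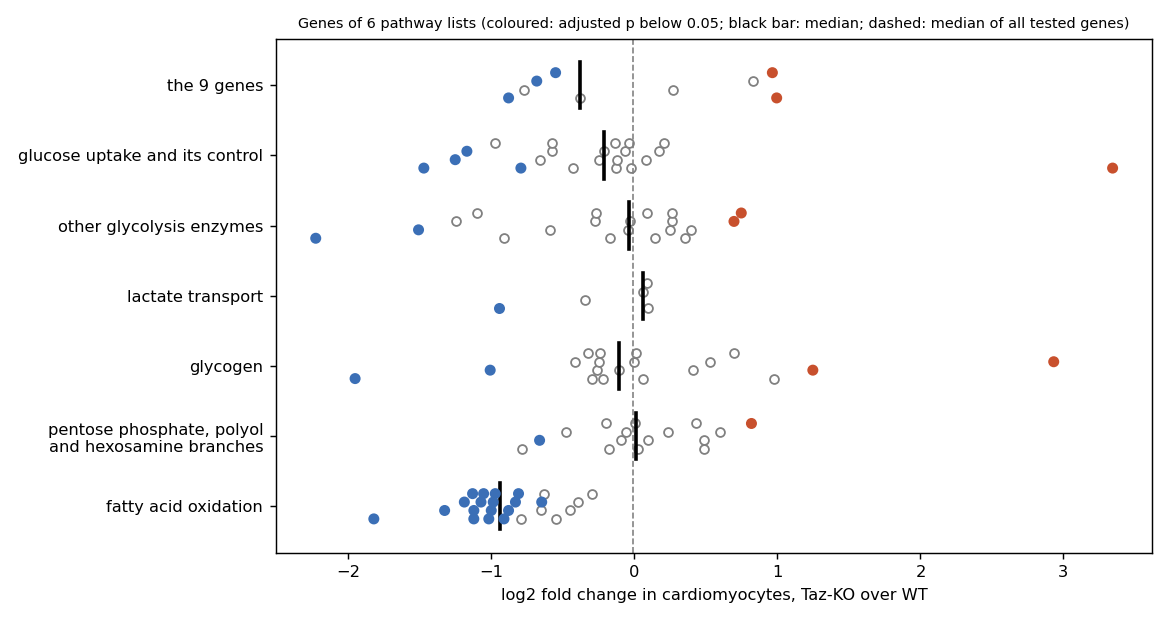
Log2 fold change of Taz-KO over WT in cardiomyocytes (horizontal axis) for the 9 genes and 6 pathway lists, with 1 point per gene, coloured where the adjusted p is below 0.05; black bars are list medians and the dashed line is the median of all tested genes (-0.01). The 24 genes of fatty acid oxidation all lie below 0, whereas the glucose lists have members on both sides.

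Summed over the 9 genes, the plain CPM in cardiomyocytes was 1232 ± 173 in WT and 1294 ± 158 in Taz-KO (SD, n = 4 each), a difference smaller than the spread between mice. The sum over the 24 genes of fatty acid oxidation was 4435 ± 753 CPM in WT and 2534 ± 424 CPM in Taz-KO, and the mice did not overlap (3467 to 5306 against 2156 to 2904). The ratio of the first sum to the second was 0.378, 0.293, 0.251 and 0.217 in WT and 0.672, 0.373, 0.459 and 0.603 in Taz-KO. It was higher in Taz-KO on average, with 1 Taz-KO mouse, replicate 4910, just below the highest WT mouse. It was also higher in Taz-KO outside cardiomyocytes. It ran from 0.254 to 0.266 in WT fibroblasts and from 0.277 to 0.320 in those of Taz-KO mice, from 0.253 to 0.269 against 0.275 to 0.345 for endothelial cells, and from 0.253 to 0.284 against 0.285 to 0.403 for macrophages, with no overlap between genotypes in these 3 cell types. No test was run on this ratio, whose divisor is the list chosen with its fall in these libraries known. Outside cardiomyocytes the sums varied between mice of a genotype, as from 1479 to 3698 CPM for fatty acid oxidation in WT fibroblasts. How much of either sum was free cardiomyocyte RNA there was not tested.

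For the genes called in cardiomyocytes, those whose log2 CPM followed them most closely over the 8 mice were named as a description. These mice include both genotypes, whose difference adds to each correlation. Pfkp was followed by Gm10010 and Slc26a8 (Pearson's r = 0.99 for each), Hk1 by Spata1 and Psma8 (0.99 for each), Slc2a4 by A430018G15Rik (0.99) and Prpf19 (0.98), Pfkm by 2310039L15Rik (0.99) and Pcp4l1 (0.98), and Ldhb by Pln (0.98) and Itga1 (0.97). The first 2 genes of Pfkp, the second of Hk1 and the first of Slc2a4 had means of 6.02, 4.64, 1.99 and 0.698 CPM, so that few UMIs stood behind them.

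Markers of other cell types were present in cardiomyocyte nuclei of both genotypes, and their part in the results above was not tested. The summed level of 7 fibroblast markers lay between 949 and 4681 CPM in WT and 179 and 3383 CPM in Taz-KO, and that of 8 endothelial markers between 283 and 487 CPM and 72.5 and 545 CPM. Macrophage markers (8) lay between 324 and 463 CPM and 265 and 452 CPM. Some rarer types differed without overlap between mice: 5 smooth muscle markers summed to 13.1 to 52.9 CPM in WT and 56.0 to 235 CPM in Taz-KO, with 1 called higher, and 6 B-lymphocyte markers to 20.1 to 27.0 CPM and 5.66 to 16.6 CPM, with 1 called lower. Lymphatic endothelial markers (6) lay between 148 and 263 CPM and 125 and 244 CPM, with 1 called lower, as was 1 macrophage marker. Pericyte (6), mesothelial (6), adipocyte (7) and T-lymphocyte (5) markers overlapped between genotypes, with none called. No marker of these lists was at 0 over the 8 mice. The 8 cardiomyocyte markers summed to 48344 to 65485 CPM in WT and 37427 to 57115 CPM in Taz-KO, with none called.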

How the data were processed

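Heart nuclei of 4 WT and 4 Taz-KO mice were profiled with a droplet 3' assay. The authors aligned reads to mm10 with introns included (Cell Ranger 6.0.1) and deposited raw UMI counts per gene and nucleus. Kept barcodes had 800 UMIs and 250 genes or more, the nuclei most like simulated doublets were removed (at most 10% of a library), and clusters were named from fixed markers. Sums over the nuclei of each cell type in a mouse (10 or more) were tested with edgeR 4.0.16 (R 4.3.3; TMM, filterByExpr, robust quasi-likelihood test), with p-values adjusted by Benjamini-Hochberg over all genes of a cell type and a threshold of 0.05. The 9 genes, the pathway lists and the genes named from them (those called; for fatty acid oxidation the 5 largest changes) were chosen with earlier results of these data known. Alternatives were RLE scaling, DESeq2 1.42.0, no low-count filter, leaving out each mouse, subtraction of an ambient share of 0.2, a gate per nucleus, stricter UMI and mitochondrial limits, no doublet removal and a stricter threshold. The scripts were tested on simulated data.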

Additional observations from a re-analysis of the deposited data

Results flagged for a closer look

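In 3 of 72 groups of 4 mice, 1 mouse lay far from the others, where chance gives about 1 in 20, and each time it was Taz-KO replicate 5301, a small library. Ldha in its fibroblasts was at 17.1 CPM, with the other Taz-KO mice between 70.3 and 73.2 CPM. Pfkm in its endothelial cells was at 14.6 CPM, against 59.7 to 62.4 CPM. Hk1 in its macrophages was at 44.9 CPM, against 77.9 to 80.9 CPM.

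The genotype effect on Pfkp differed between cell types in a test of the difference itself. It was larger in cardiomyocytes than in fibroblasts by 1.12, than in endothelial cells by 0.87 and than in macrophages by 0.88 (log2, with edgeR's adjusted p = 0.00232, 0.0326 and 0.0407). Of all genes 5.47%, 3.43% and 2.97% were called in these contrasts. With 1 mouse left out, the call was kept in 8 of 8 fits against fibroblasts. Against endothelial cells it was kept in 2 of 8 and against macrophages in 3 of 8.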

How the results depend on the processing

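No paired analysis was possible because the genotypes share no replicate numbers. In cardiomyocytes 5 of the 9 genes were called, 2 to 7 when 1 mouse was left out (2, Hk1 and Pfkp, without WT replicate 4909), 0 without both small libraries (chosen after seeing the data) and 0 at an adjusted p below 0.001 with a log2 fold change over 0.58. Of all genes 2649 were called, 369 at that stricter threshold and 1693 to 2717 without 1 mouse. In fibroblasts 56 genes were called, 339 with DESeq2, 89 with no low-count filter, 0 after ambient subtraction, 120 without both small libraries, 2 at the stricter threshold and 7 to 140 without 1 mouse. In endothelial cells these counts were 68, 281, 122, 1, 116, 4 and 13 to 152, and in macrophages 35, 122, 97, 0, 106, 1 and 2 to 129, with 59 for the gate per nucleus. None of the 9 genes was called in these 3 cell types under any of these settings. The genotype effect differed between cardiomyocytes and endothelial cells for 640 genes, 991 with DESeq2, 1012 without both small libraries and 299 to 1220 without 1 mouse. For fibroblasts it did for 1019, 1595 and 558 to 1518 without 1 mouse (DESeq2 within 1.5 times), and for macrophages for 553, 836, 976 and 281 to 1034. Directions turned only for genes that were not called: Hk2 in cardiomyocytes without both small libraries (-0.13), after ambient subtraction Hk1 (-0.16) and Hk2 (-0.51) in fibroblasts, Hk2 (-0.12) and Pfkp (-0.082) in endothelial cells and Pfkp in macrophages (-0.12), Hk2 in fibroblasts with no filter (-0.021), and Pkm in macrophages with the gate (0.026). Without 1 mouse, Hk2 ranged from -0.18 to 0.16 in fibroblasts and -0.14 to 0.25 in endothelial cells, Pfkp from -0.013 to 0.23 in endothelial cells and -0.032 to 0.23 in macrophages, Pkm in macrophages from -0.48 to 0.057 and Slc2a4 in adipocytes from -0.093 to 1.15. The causes were not tested. The limit of under 5% mitochondrial UMIs was run in cardiomyocytes only, without WT replicate 4909, which kept too few nuclei. Depth limits Slc2a1 and Slc2a4 in fibroblasts, endothelial cells and macrophages, where the lowest mouse had 3 to 8 and 2 to 10 UMIs, and cell types with few nuclei in both small libraries.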

Other observations

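In adipocytes, genes of the glucose lists other than the 9 were called mostly as higher in Taz-KO. Of all 12247 genes tested there 4.49% were called, 173 higher and 377 lower. Of 19 genes of glucose uptake and its control 1 rose and 1 fell. Of 18 other glycolysis enzymes 3 rose, of 18 glycogen genes 2, and of 16 genes of the pentose phosphate, polyol and hexosamine branches 2, with 0 lower. Of 4 lactate genes 0 were called. The genes named here were picked with their values in view and rest on 3 Taz-KO mice, 1 of them with 21 nuclei. Among genes that rose (edgeR, log2 fold change ± SE) were Mlxipl, which encodes ChREBP (1.26 ± 0.30, adjusted p = 0.0403), the enolase Eno1 (1.37 ± 0.28, adjusted p = 0.0252), Pgam1 (1.67 ± 0.32, adjusted p = 0.0236), Pfkfb3 (1.38 ± 0.34, adjusted p = 0.0446), the glycogen genes Pygl (1.87 ± 0.36, adjusted p = 0.0241) and Gbe1 (1.47 ± 0.25, adjusted p = 0.0185), and Pgd (1.34 ± 0.29, adjusted p = 0.0308) and Tkt (1.53 ± 0.28, adjusted p = 0.0219) of the pentose phosphate route. Tbc1d1, which restrains GLUT4 traffic, fell (-1.71 ± 0.41, adjusted p = 0.0407). Of the fatty acid oxidation list 1 of 24 was called there, a share near that of all genes (4.49%), Acad11 (1.05 ± 0.26, adjusted p = 0.0471), and 23 of 24 had positive fold changes, with a median of 0.54. Mlxipl was called in the opposite direction in cardiomyocytes (-1.25), and the difference between these cell types was not tested. With ambient RNA subtracted, 0 of 18 uptake genes and 0 of 24 fatty acid oxidation genes were called in adipocytes. The adipocyte calls of Mlxipl, Tbc1d1 and Acad11 thus did not hold in that setting. Of the other glycolysis enzymes 2 of 17 still rose there, as did 2 of 17 glycogen genes. In the pentose phosphate, polyol and hexosamine branches 2 of 15 did.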
